A study of Rattus norvegicus with 6 samples.

Results

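Toll-like receptors and the adaptor proteins that carry their signal were examined in the hippocampus of rats exposed to intense noise. The family was taken as 10 genes by their symbols: Tlr1, Tlr2, Tlr3, Tlr4, Tlr5, Tlr6, Tlr7, Tlr9, Myd88 and Ticam1. Of these, 9 had a transcript cluster (the set of probes that reads 1 gene) with that symbol alone among the 29489 clusters of the array, and Tlr9 had none. Each of the 9 genes had 1 such cluster, so no choice between clusters was needed. The family was proposed with the lower level of Tlr3 in the noise group already known, and the difference of Tlr3 is therefore given as a description without a p-value.

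Toll-like receptors are membrane proteins that recognise molecules of microbes and of damaged cells, and in the brain they are known best from microglia, with some members also found in astrocytes, neurons and vessel cells. Receptors of the cell surface recognise mainly bacterial lipids and proteins, and receptors of the endosome recognise nucleic acids. After binding, the intracellular TIR domain recruits an adaptor. Myd88 leads to NF-kappaB, AP-1 and inflammatory cytokines. Ticam1 (also called TRIF), the adaptor of Tlr3, also leads to type I interferon, which has other routes too.

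The noise group consisted of 3 arrays, called noise arrays 2, 3 and 4 after their labels, from rats that received white noise (2 to 20 kHz, 115 dB SPL) on 3 consecutive days, lasting 4 hours each day. The control group consisted of control arrays 1, 2 and 6 from rats without noise, which per the study's methods sat in the same kind of chamber at background sound. All rats were female Sprague-Dawley (SD) rats of weaning age, and each array held RNA pooled from a pair of rats. A p-value here therefore rests on the variation among pools and not among single animals. The labels place the harvest directly after the exposure, whereas the methods place it some hours after a hearing test under anaesthesia in both groups, and the methods also name dissection of the dorsal CA3 region.

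Sequence upstream of the transcription start is shown for the gene with the largest difference, Tlr3, and, for comparison, around the inflammatory motifs found in 2 other members. RefSeq (build GRCr8) gave the 250 bases before the start for 9 of the 10 members, Ticam1 not among them. These windows were searched on both strands for an interferon-stimulated response element (GAAA, any 2 bases, GAAA), an NF-kappaB site (GGGANTTCC), an AP-1 site (TGANTCA), a STAT site (TTCNNNGAA) and a glucocorticoid response element (AGAACA, any 3 bases, TGTNCT). Capitals mark the first of these motifs in Myd88 and the second in Tlr2.
Tlr3, chr16:53554666-53554915, plus strand: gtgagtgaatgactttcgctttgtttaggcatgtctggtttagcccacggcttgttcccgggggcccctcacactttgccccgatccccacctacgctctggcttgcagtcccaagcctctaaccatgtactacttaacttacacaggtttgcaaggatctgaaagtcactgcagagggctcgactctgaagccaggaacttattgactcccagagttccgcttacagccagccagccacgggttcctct
Tlr2, chr2:171504728-171504787, minus strand: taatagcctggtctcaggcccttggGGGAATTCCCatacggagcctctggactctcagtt
Myd88, chr8:127956231-127956290, minus strand: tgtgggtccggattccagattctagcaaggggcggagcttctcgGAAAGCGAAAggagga
None of the 5 motifs was spelled in the Tlr3 window. The capitals in Tlr2 are a palindrome that holds the NF-kappaB letters once on each strand. The Myd88 window held the interferon motif, a STAT motif whose end overlaps the start of it, and an AP-1 motif farther upstream, and the Tlr9 window held an AP-1 motif. Among 33469 windows of the same length, 3.41% held the interferon motif, 1.43% the NF-kappaB motif, 6.34% the AP-1 motif, 7.67% the STAT motif and 0.0179% the glucocorticoid motif. These matches describe letters and not bound sites.

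Tlr3, the endosomal receptor for double-stranded RNA, was the only one of the 9 genes that passed both criteria of the study for a changed gene, an unadjusted p of 0.05 or less (here from limma) together with a change of 1.5-fold or more. Its log2 expression was 4.57, 4.67 and 4.96 on noise arrays 2, 3 and 4, against 5.69, 5.63 and 5.46 on control arrays 1, 2 and 6. Every noise array lay below every control array. The means were 4.73 (SD = 0.21, n = 3) in the noise group and 5.59 (SD = 0.12, n = 3) in the control group. The difference, noise minus control, was -0.86 in log2 units (standard error 0.13), so that Tlr3 was 1.82-fold lower in the noise group. The closest arrays of the groups were noise array 4 and control array 6. In whole tissue, fewer cells with the transcript and less transcript per cell cannot be told apart.

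**Figure D1:**
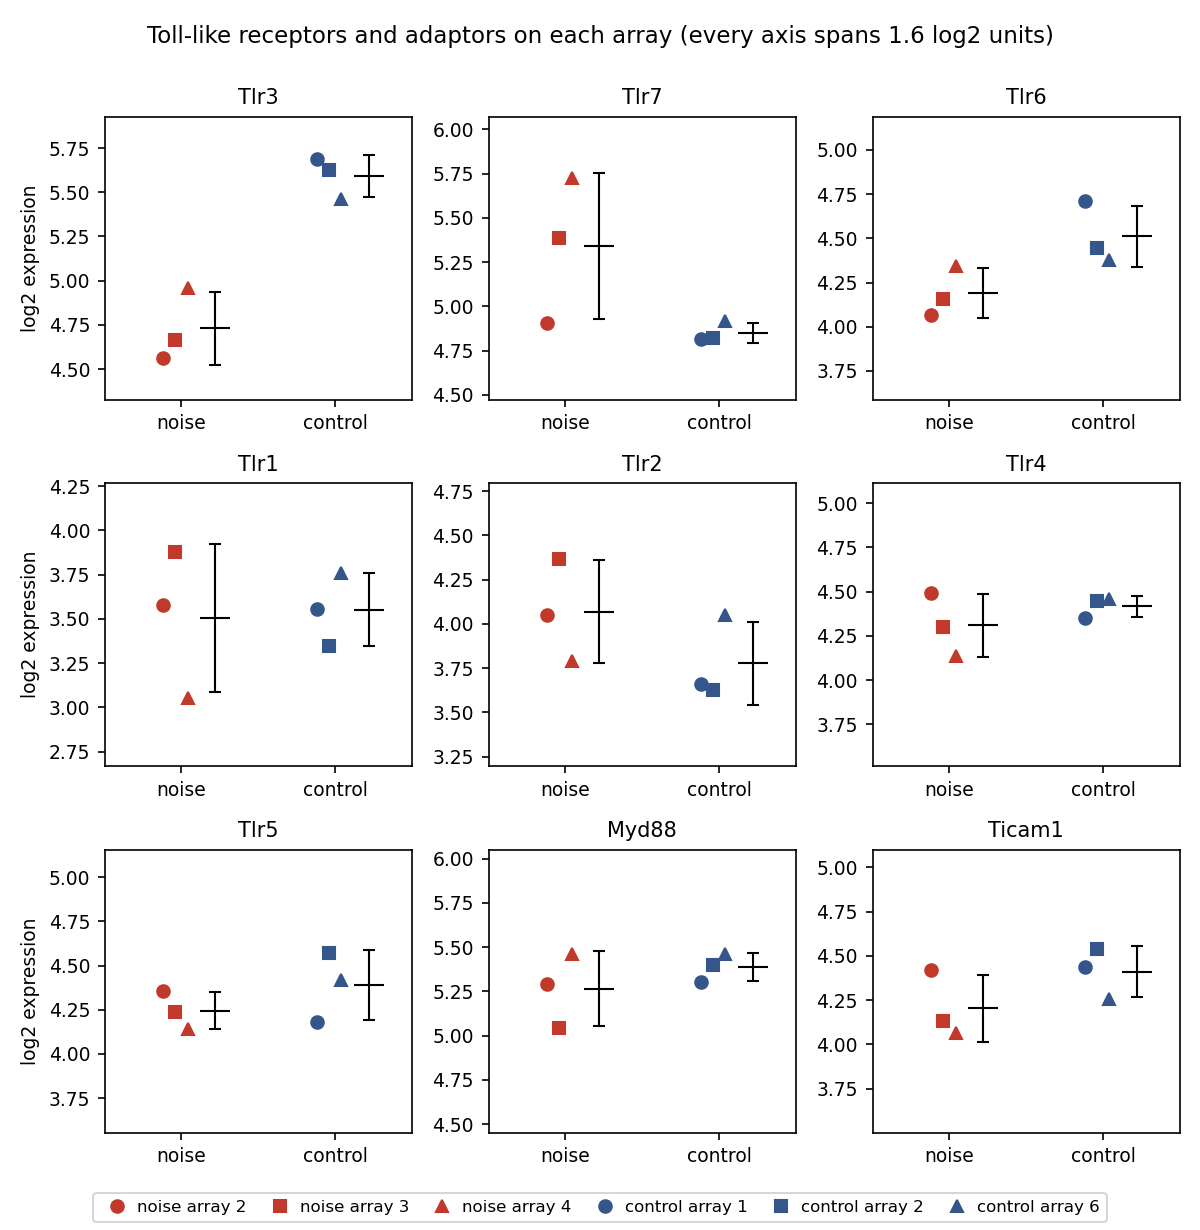
Log2 expression of the 9 measured genes on each of the 3 noise arrays (red, left) and 3 control arrays (blue, right), with the group mean and SD in black beside the points; the span of the vertical axis is the same in every panel. Tlr3 was between 4.57 and 4.96 in the noise group and between 5.46 and 5.69 in the control group, Tlr6 showed a narrower gap, and the groups overlapped for the other 7 genes.

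Tlr7, the endosomal receptor for single-stranded RNA, had values of 4.91, 5.39 and 5.73 on noise arrays 2, 3 and 4, against 4.82, 4.82 and 4.92 on control arrays 1, 2 and 6. Noise arrays 3 and 4 lay above all control arrays, while noise array 2 lay among them. The SD was 0.41 in the noise group and 0.06 in the control group. The difference was 0.49 on the log2 scale (standard error 0.19, 95% interval from 0.04 to 0.94, adjusted p = 0.47 from limma), below the fold threshold. Without noise array 2 it was 0.71 and passed both thresholds, and without noise array 4 it was 0.30. The mean of 16 microglia genes was 5.94, 6.10 and 6.10 on noise arrays 2, 3 and 4, against 6.03, 5.99 and 6.06 on control arrays 1, 2 and 6. Within the noise group, 6, 4 and 6 of these 16 genes were lowest on noise arrays 2, 3 and 4, and 3, 7 and 6 were highest there. The part of microglia in the spread of Tlr7 was not tested, and with the mean of the microglia list as a covariate the difference of Tlr7 was 0.40.

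Of the surface receptors, Tlr6, which pairs with Tlr2 to recognise bacterial lipopeptides, had groups that did not overlap. Its values were 4.07, 4.16 and 4.34 on noise arrays 2, 3 and 4, against 4.71, 4.44 and 4.38 on control arrays 1, 2 and 6. The gap between noise array 4 and control array 6 was narrow. The difference was -0.32 on the log2 scale (standard error 0.13, 95% interval from -0.62 to -0.03, adjusted p = 0.47 from limma). It did not reach the fold threshold, and it was -0.22 without control array 1.

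Tlr2, the receptor of bacterial lipoproteins, was at 4.05, 4.37 and 3.79 on noise arrays 2, 3 and 4, against 3.66, 3.62 and 4.05 on control arrays 1, 2 and 6. Control array 6 reached the level of noise array 2, and the difference of 0.29 had a 95% interval from -0.12 to 0.71 (adjusted p = 0.61 from limma). The difference of Tlr2 was 0.14 without noise array 3, 0.43 without noise array 4 and also without control array 6, and 0.02 without both control arrays 1 and 2. Its partner Tlr1 was at 3.58, 3.88 and 3.05 on the noise arrays, against 3.56, 3.34 and 3.76 on the control arrays. The noise arrays of Tlr1 spanned the whole range of the control arrays and more, with an SD of 0.42 in the noise group and 0.21 in the control group. The difference of Tlr1 was -0.05, and its 95% interval from -0.55 to 0.45 was the widest of the 9 genes. Without noise array 4 the difference of Tlr1 was 0.18. Tlr6, Tlr1 and Tlr10 are direct neighbours in the RefSeq table and similar in sequence, so that probes may bind more than 1 of them.

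Tlr4, which recognises bacterial lipopolysaccharide, was at 4.49, 4.30 and 4.14 on noise arrays 2, 3 and 4, against 4.35, 4.45 and 4.46 on control arrays 1, 2 and 6. The highest and the lowest value both belonged to the noise group. The difference was -0.11 (95% interval from -0.38 to 0.16, adjusted p = 0.78 from limma). Tlr5, the receptor of flagellin, was at 4.35, 4.24 and 4.14 on the noise arrays, against 4.18, 4.57 and 4.42 on the control arrays. Its groups overlapped through control array 1, and the difference of -0.14 had a 95% interval from -0.44 to 0.15.

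The adaptors did not pass the thresholds. Myd88, which serves all of the measured receptors apart from Tlr3, was at 5.29, 5.04 and 5.46 on noise arrays 2, 3 and 4, against 5.30, 5.40 and 5.46 on control arrays 1, 2 and 6. Noise array 3 was the lowest array, and the other noise arrays lay at the level of the control group. The difference of Myd88 was -0.12 (95% interval from -0.42 to 0.17, adjusted p = 0.77 from limma). Ticam1 was at 4.42, 4.13 and 4.06 on the noise arrays, against 4.44, 4.54 and 4.26 on the control arrays. Noise arrays 3 and 4 lay below every control array and noise array 2 did not. The difference of Ticam1 was -0.21 (95% interval from -0.51 to 0.10, adjusted p = 0.62 from limma). For both adaptors, and for Tlr4 and Tlr5, the intervals leave out a fold change of 1.5 in either direction.

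**Figure D2:**
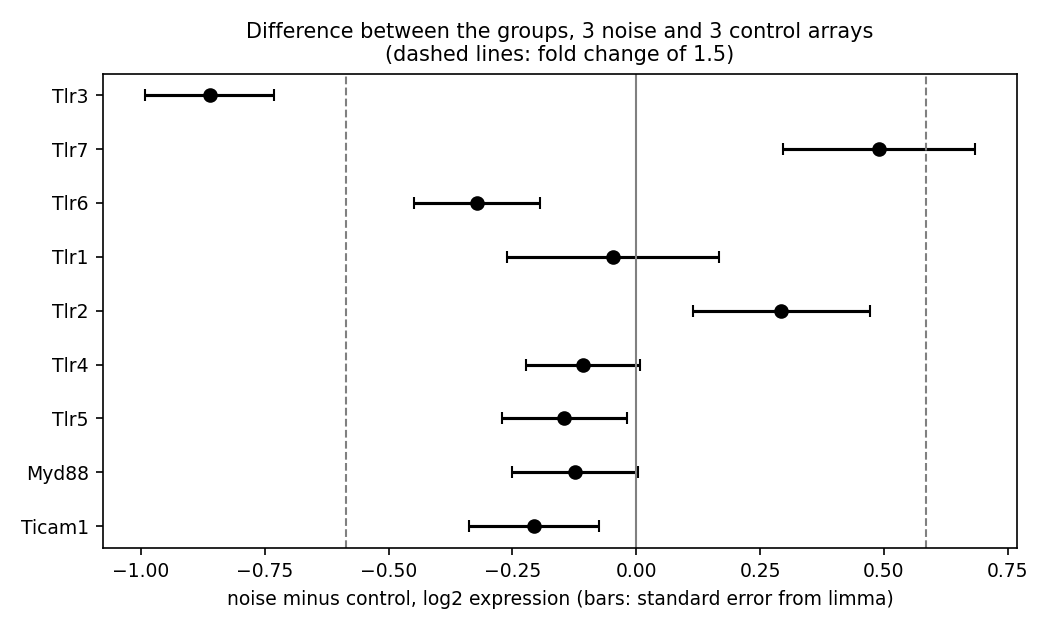
Difference in log2 expression, noise minus control, of the 9 measured genes with the standard error from limma as bars; dashed lines mark a fold change of 1.5. Tlr3 at -0.86 lies beyond the lower line, Tlr7 at 0.49 and Tlr6 at -0.32 lie inside both lines, and the other 6 genes lie between -0.21 and 0.29.

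Across the family, 1 of 9 genes was lower at the thresholds, where 0.882% of all clusters were lower, and 0 of 9 were higher, where 0.58% of all clusters were higher. As the contrast was known when the family was proposed, these shares describe the family and nothing is read from them. At an unadjusted p of 0.05 alone, limma counted 3 of 9 genes and the methods' t-test 1 of 9, where limma counted 10.1% of all clusters. At an adjusted p of 0.05, limma counted 0 of 9 genes, the methods' t-test also 0, and 3 of the 29489 clusters passed with limma (0.0102%). Groups did not overlap for 2 of 9 genes, both lower in the noise group, against 8.06% of all clusters in that direction, and 0 of 9 genes were higher on every noise array, against 8.45% of all clusters. The difference was below 0 for 7 of 9 genes and for 48.7% of all clusters, with a median of -0.12 over the 9 genes and of 0.01 over all clusters. The share of all clusters at an unadjusted p of 0.05 alone was counted with limma only. The count by the methods' test therefore has no share to be compared with, and nothing is read from it. With 3 arrays per group, the smallest two-sided p of an exact permutation test would be 0.1.

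Of the receptors outside the 10 genes, Tlr11, Tlr12 and Tlr13 had a cluster of their own, and none of the 3 passed the thresholds. Tlr12, known from mice as a receptor for a protozoan profilin, had the largest difference among them at 0.26. Its values were 4.59, 4.26 and 4.69 on noise arrays 2, 3 and 4, against 4.21, 4.22 and 4.32 on control arrays 1, 2 and 6, and the groups overlapped. The differences of Tlr11 and Tlr13 were -0.06 and 0.03.

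Further genes of the pathway were grouped by their role, and 91 of 98 listed genes had a cluster. At the thresholds 2 of the 91 were higher and 0 were lower. Over all clusters 0.58% were higher and 0.882% were lower. Without the fold threshold, 13 of 91 genes had an unadjusted p of at most 0.05 by limma, 10 higher and 3 lower, where limma counted 10.1% of all clusters. The methods' t-test also counted 13, with 9 higher and 4 lower. At an adjusted p of 0.05, limma and the methods' t-test counted 0 of 91. Groups did not overlap for 14 of the 91 with every noise array higher and for 5 with every noise array lower, against 8.45% and 8.06% of all clusters. The share of all clusters at an unadjusted p of 0.05 alone was counted with limma only, and for both directions together. The counts by the methods' test and the counts per direction at that cut have no share to be compared with. As the lists were chosen with earlier results known, nothing is read from these counts and shares. The median difference of the 91 genes was 0.02.

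None of 8 co-receptors and receptor trafficking proteins passed, with a median difference of 0.03. Cnpy3, a chaperone of Toll-like receptors, had the largest difference at 0.30, and Cd14, the co-receptor that hands lipopolysaccharide to Tlr4, had 0.18, each with noise arrays above all control arrays. Cd180, a relative of Tlr4 on B cells, had -0.29 and its partner Ly86 had 0.14, both with overlapping groups. Unc93b1, which brings Tlr3, Tlr7 and Tlr9 to the endosome, had a difference of 0.00 (standard error 0.14).

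Among 7 other TIR adaptors and inhibitors none passed, and their median difference was -0.08. Tirap, the adaptor that bridges Tlr2 and Tlr4 to Myd88, had a difference of -0.24, with values of 4.77, 4.55 and 4.73 on noise arrays 2, 3 and 4, against 4.87, 4.96 and 4.94 on control arrays 1, 2 and 6. Tollip, an inhibitor of the receptor-bound kinases, had 0.25, and Sarm1, a TIR protein with NAD-cleaving activity, had 0.21. Groups did not overlap for these 3 genes, and their adjusted p-values from limma lay between 0.47 and 0.49. Irak3, a kinase relative that restrains the pathway, had -0.20 with overlapping groups. Of 16 kinases and ubiquitin ligases none passed, with a median of -0.06. The largest differences were -0.39 for Ikbkg, the regulatory subunit of the IkappaB kinase, -0.27 for Irak4 and 0.26 for Irak1, the kinases at the receptor, and 0.26 for Traf6, the ubiquitin ligase after them. Of 8 receptors of the interleukin-1 family, which share the TIR domain, none passed, and Il18r1 had the largest difference at -0.33. Il1r1, the signalling receptor of interleukin-1, had 0.14, its accessory protein Il1rap had -0.10 and Il1rapl2 had -0.08.

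Of 10 transcription factors 1 was higher, and of 16 NF-kappaB target genes 1 was higher, and none of either list was lower. These 2 genes were Fos and Nfkbia, which were known to be higher on these noise arrays when the lists were chosen, so that they are given as descriptions. Fos, a subunit of AP-1, was at 6.81, 6.94 and 7.14 on noise arrays 2, 3 and 4, against 5.55, 5.04 and 5.28 on control arrays 1, 2 and 6, a difference of 1.67. Nfkbia, which encodes the inhibitor IkappaB-alpha and is itself induced by NF-kappaB, was at 8.01, 7.69 and 7.67 on the noise arrays, against 6.65, 6.64 and 6.64 on the control arrays, a difference of 1.14. Both genes are also induced by stimuli that do not pass through Toll-like receptors.

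Among the other genes of these lists, Jun, the partner of Fos, had a difference of 0.48 (adjusted p = 0.36 from limma). Nfkb1, which encodes the p50 subunit, had -0.47 (adjusted p = 0.33), and the chemokine Cxcl1 had 0.48 (adjusted p = 0.36). The groups were separate for these 3 genes. Irf5, an interferon regulatory factor that acts after Myd88, had 0.28 with overlapping groups, and Rel, a subunit of NF-kappaB, had 0.24 with separate groups. The chemokine Ccl3 had a difference of 0.46 with overlapping groups. Ptgs2, the inducible cyclooxygenase, had -0.38 with overlapping groups, and the cytokine Il6 had -0.35 with separate groups. Il6 and Ccl3 were dim, with means of 3.52 and 3.82 in the noise group and 3.88 and 3.36 in the control group. These levels lie below the array median of 5.05. The NF-kappaB targets had a median difference of 0.11 and the transcription factors had a median of -0.01.

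Of 16 interferon target genes, which follow the Ticam1 branch among other routes, none passed and the median difference was 0.06. The antiviral GTPases Mx1 and Mx2 had the largest differences at 0.34 and 0.29, with noise arrays above all control arrays and an adjusted p of 0.48 and 0.50 from limma. Oasl and Isg15, antiviral proteins, had 0.23 and 0.17, and Ifnb1, the interferon itself, had 0.05. Mx1 and Isg15 were dim, with means of 3.63 and 2.76 in the noise group and 3.29 and 2.58 in the control group. These levels lie below the array median of 5.05. Of 7 other sensors of double-stranded RNA or antiviral effectors that need it, none passed. Ddx58 (RIG-I) and Ifih1 (MDA5), cytosolic sensors that share the ligand class of Tlr3, had differences of 0.17 and -0.17. Oas2, an enzyme activated by double-stranded RNA, had 0.16, and Dhx58 (LGP2), which modulates both cytosolic sensors, had 0.11.

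**Figure D3:**
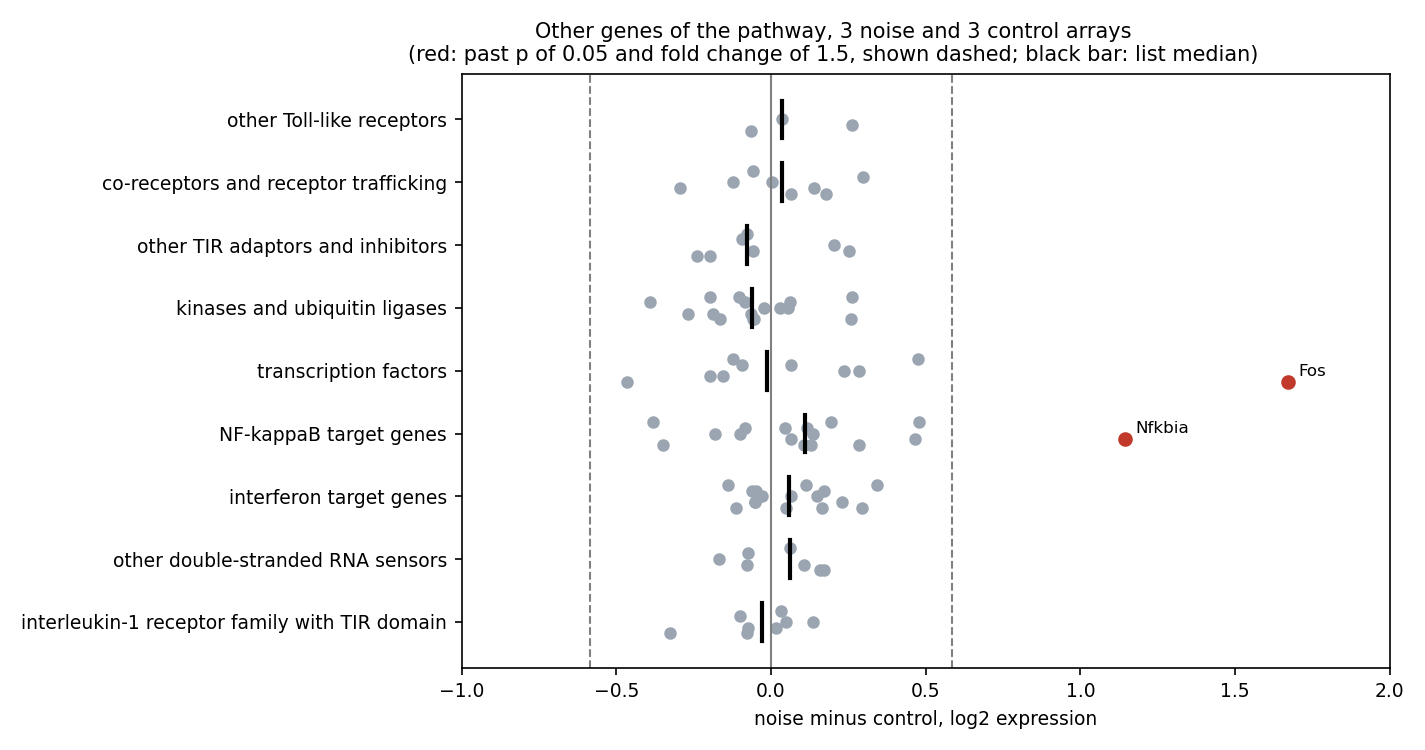
Difference in log2 expression, noise minus control, of 91 other genes of the pathway in 9 lists; each point is a gene, the black bars are list medians and the dashed lines mark a fold change of 1.5. Fos at 1.67 and Nfkbia at 1.14 are the only genes past the thresholds (red), and the medians lie between -0.08 and 0.11.

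Markers of neighbouring tissue moved with the groups in the same direction as Tlr3. The mean log2 expression of 16 choroid plexus genes was 5.28, 5.14 and 5.46 on noise arrays 2, 3 and 4, against 7.62, 6.93 and 5.85 on control arrays 1, 2 and 6, and 11 of the 16 were lower at the thresholds. Of 14 genes of the thalamus and medial habenula, 7 were lower, with list means of 5.24, 5.43 and 5.33 on the noise arrays, against 6.17, 5.99 and 5.61 on the control arrays. Over all clusters, 0.882% were lower. The lists hold genes that the study had reported as lower on these arrays. Those named in the study's main text are Kl and Slc4a5 for choroid plexus, and Slitrk6, Chrna3 and Slc5a7 for thalamus and habenula. The study's full list of lower genes was not compared, so that other genes of the lists, Ttr included, may also be in it. The counts and list means are therefore given as descriptions. Ttr, the transthyretin gene that defines choroid plexus, was at 6.36, 5.09 and 7.47 on the noise arrays, against 11.7, 10.9 and 9.08 on the control arrays. Among the control arrays, Tlr3 and both list means were highest on control array 1 and lowest on control array 6. Neither list followed the order of Tlr3 among the noise arrays. There Tlr3 was lowest on noise array 2 and highest on noise array 4. The choroid plexus mean was lowest on noise array 3 and highest on noise array 4. The thalamus and habenula mean was lowest on noise array 2 and highest on noise array 3. With the mean of the choroid plexus list as a covariate, the difference of Tlr3 was -0.62 (standard error 0.22), and that of Tlr6 was -0.03. Without both control arrays 1 and 2, where the choroid plexus list was highest, the difference of Tlr3 was -0.73 and that of Tlr6 was -0.19. The covariate overlaps with the groups, so that tissue content and noise cannot be told apart by it.

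Markers of the cells known to carry the receptors did not pass the thresholds. The list mean of 16 microglia genes was between 5.94 and 6.10 on the noise arrays and between 5.99 and 6.06 on the control arrays. At the thresholds 0 of the 16 genes were called, where 1.46% of all clusters were called in either direction. With so small a share, nothing is read from a count of 0 in marker lists of this size. Without overlap of the groups, 1 of the 16 was lower and 4 were higher in the noise group, against 8.06% and 8.45% of all clusters. The differences of the 16 genes lay between -0.31 for Cx3cr1 and 0.25 for C1qb. None of 8 astrocyte genes, 10 neuron genes, 10 oligodendrocyte genes, 8 endothelial and pericyte genes and 10 blood leukocyte genes passed. The endothelial and pericyte list had a median difference of -0.16, and 3 of its 8 genes were lower on every noise array, against 8.06% of all clusters. With the microglia list mean as a covariate, Tlr3 had a difference of -0.89. Markers of the hippocampal subfields were present in both groups, among them Wfs1 of CA1 at means of 9.59 in the noise group and 9.57 in the control group, and Prox1 of the dentate gyrus at 7.79 in the noise group and 7.93 in the control group.

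**Figure D4:**
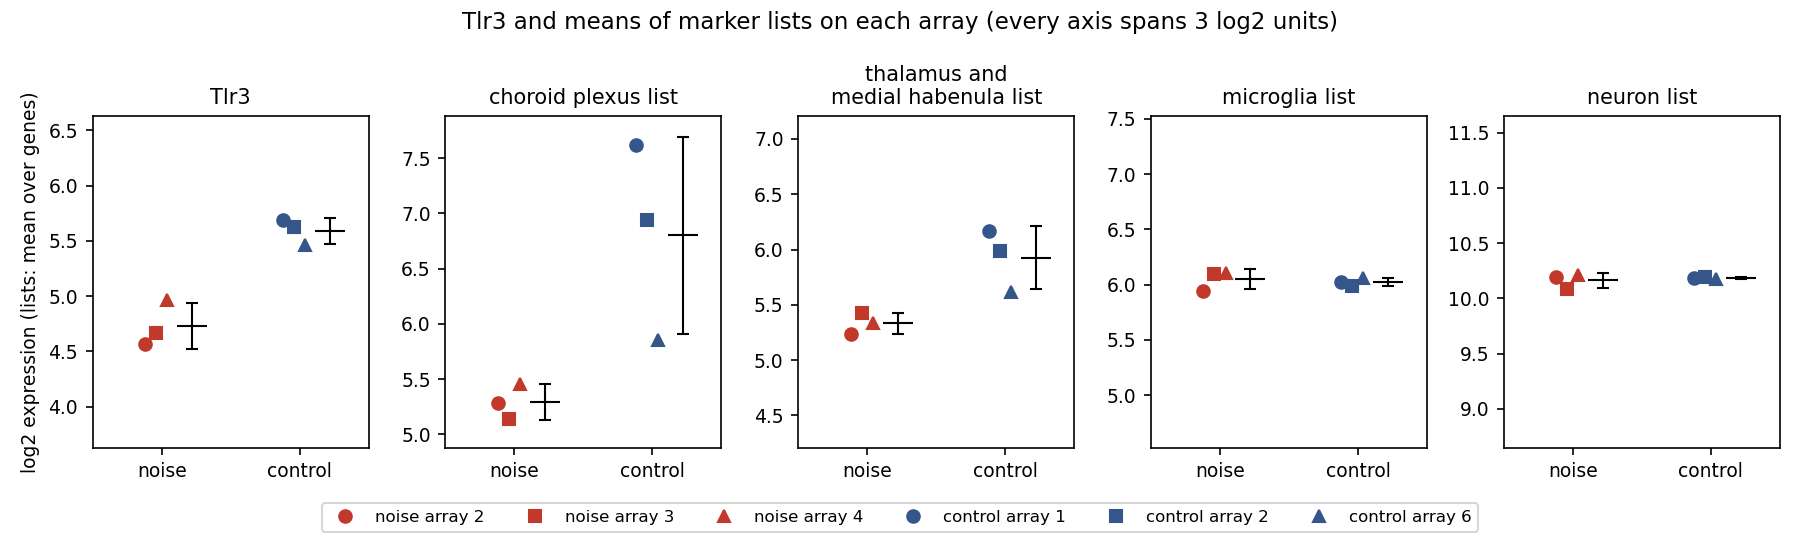
Log2 expression of Tlr3 and the means of 4 marker lists on each of the 3 noise arrays (red, left) and 3 control arrays (blue, right), with the group mean and SD in black; the span of the vertical axis is the same in every panel. Choroid plexus means were between 5.14 and 5.46 in the noise group and between 5.85 and 7.62 in the control group, while microglia means were between 5.94 and 6.10 in the noise group and between 5.99 and 6.06 in the control group.

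The clusters most like Tlr3 over the 6 arrays, among 20756 others with 1 symbol, were those of Lnc215, Bin2, Itm2a, Lef1 and Rbpms2, with Pearson's r between 0.990 and 0.998. The groups did not overlap for any of the 5, and all were lower in the noise group. Of these 5, only Lef1, a transcription factor, is in a marker list, that of the thalamus and habenula. Its r was below those of Lnc215, Bin2 and Itm2a. Lef1 had values of 5.36, 5.54 and 5.82 on noise arrays 2, 3 and 4, against 6.47, 6.45 and 6.15 on control arrays 1, 2 and 6. Lef1 followed Tlr3 in the order of arrays within each group, and so did Lnc215, Bin2 and Itm2a, while Rbpms2 did so only in the noise group. These genes were picked for their likeness to Tlr3, so that a shared order is no separate result. With 6 points, 151 clusters had an r above 0.95 with Tlr3, and the values share the difference between the groups. Within the family, Tlr6 had the highest r with Tlr3 at 0.91, and Myd88 and Ticam1 had 0.50 and 0.49. The genes directly beside Tlr3 in the RefSeq table, Sorbs2 and Fam149a, had differences of 0.14 and -0.06. Of the 10 nearest protein-coding genes, 9 had a cluster, and none of the 9 passed the thresholds or had separate groups.

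**Figure D5:**
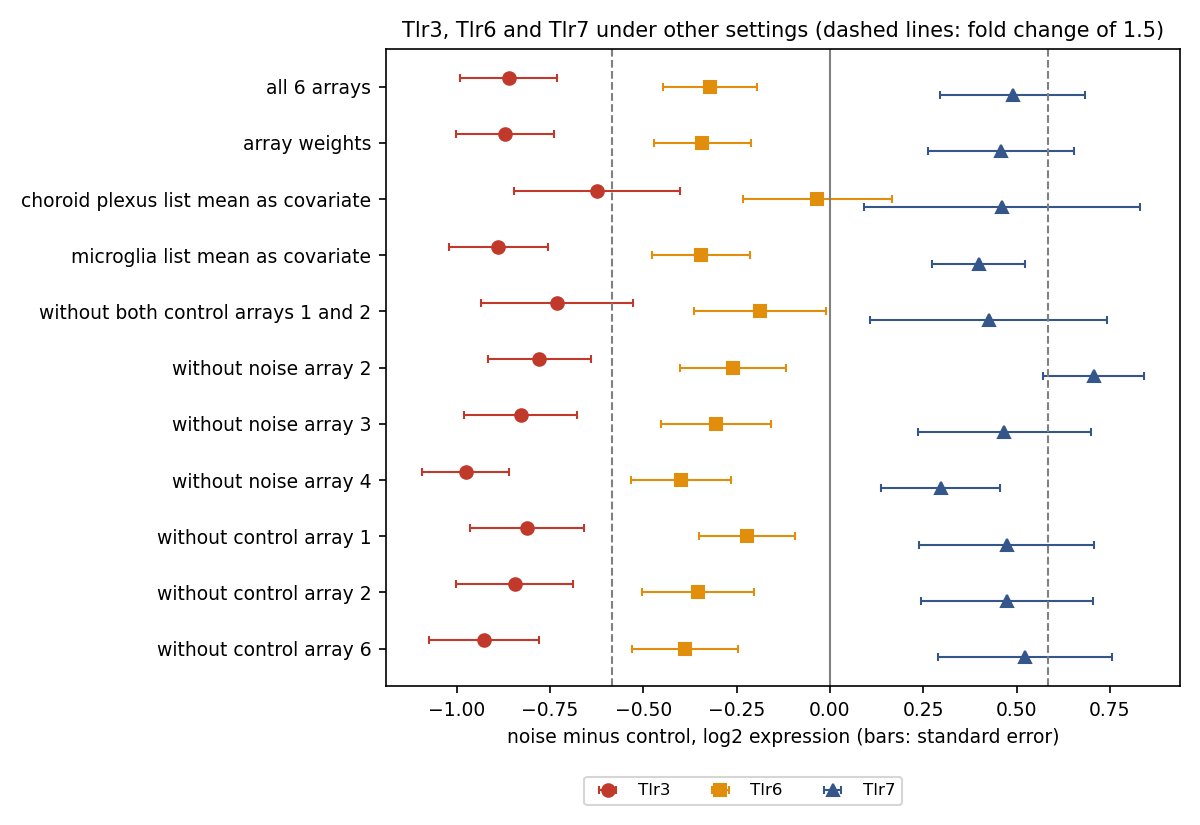
Difference in log2 expression, noise minus control, of Tlr3, Tlr6 and Tlr7 with standard errors, for all 6 arrays and for 10 other settings; dashed lines mark a fold change of 1.5. Tlr3 was between -0.98 and -0.62 in all settings shown, while Tlr7 crossed the line only without noise array 2, at 0.71.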

How the data were processed

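Hippocampal RNA of both groups was hybridised to Rat Gene 2.0 ST arrays (Affymetrix), with 3 arrays for each group. The authors deposited log2 values, made in GeneSpring GX by the RMA algorithm, which corrects the background, takes logarithms and summarises probes to transcript clusters. These values were used as deposited. All 6 arrays had a median of 5.05. Precision is limited by how few arrays there are, and no detection calls were used, so that dim clusters can hold background signal. Columns with fold changes and p-values of the authors' own comparison, and 2 sheets of rows selected by it, were not used.

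All 29489 clusters were fitted with limma 3.58.1 (R 4.3.3), group alone as the predictor, without a filter, and p-values were adjusted by the Benjamini-Hochberg method across all of them. Calls used the study's criteria, an unadjusted p of 0.05 or less from limma together with a change of 1.5-fold or more. The script was tested on simulated data. Members and lists were chosen with earlier results of these data known. Named were all members, in each pathway list the genes past the thresholds and up to 4 others with the largest differences, and the 5 clusters most correlated with Tlr3; other genes are named for their role or as cell type markers, after their values were seen. Of the listed genes, Tac2 was matched by synonym. Alternatives were the series matrix, repeated quantile normalization, median centring, a variance trend, array weights, brighter clusters, the methods' t-test, Welch's version, the mean of a gene's rows, list means as covariates and omission of arrays. They were applied to the counts of pathway genes only after seeing the data.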

Additional observations from a re-analysis of the deposited data

How the results depend on the processing

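Of 156 repeated member differences, 152 kept their direction and their side of the thresholds. Part of this was fixed in advance. The series matrix, median centring and the mean of a gene's rows returned the same values for every member. The t-tests and the variance trend could change only the p-value and not the difference. Sizes moved with array weights, covariates and omitted arrays. With single arrays left out, Myd88 was between -0.22 and -0.01 (without noise arrays 4 and 3 in turn), Tlr4 between -0.20 (without noise array 2) and -0.02 (without noise array 4), Tlr5 between -0.25 (without control array 1) and -0.06 (without control array 2), Ticam1 between -0.31 (without noise array 2) and -0.13 (without noise array 4), Tlr6 between -0.40 and -0.22, Tlr2 between 0.14 and 0.43, Tlr3 between -0.98 and -0.78, Tlr7 between 0.30 and 0.71 (passing without noise array 2) and Tlr1 between -0.24 and 0.18, with a positive sign of 0.18 without noise array 4 and of 0.05 without control array 6. The count of higher members was then between 0 and 1. Using the choroid plexus mean as covariate, Ticam1 was -0.05, Tlr4 -0.22, Tlr5 -0.32 and Myd88 -0.19, Tlr2 changed its sign to -0.14 and the count of higher pathway genes was 4 instead of 2; the cause was not tested. At an adjusted p of 0.05, 0 members were lower and 0 pathway genes were higher, by the stricter threshold itself. Over all clusters, 260 were lower and 171 higher, against 151 and 100 by the methods' t-test, 113 and 77 by Welch's version, 435 and 412 with the choroid plexus covariate, 405 and 322 without noise array 4, 388 and 307 without both control arrays 1 and 2, and 89 and 56 of the 14744 brighter clusters, which kept only Tlr3, Tlr7 and Myd88 of the members. No paired analysis was made, because neither the labels nor the methods pair noise arrays with control arrays. The cut for brighter clusters, 5.04, was applied to the mean over both groups. Tlr3 passed it only through its control arrays, with a noise mean of 4.73. Tlr7 passed it only through its noise group, with a control mean of 4.85. Their place among the brighter clusters is therefore no support for their differences. Levels below the array median, as for all members but Myd88 in at least 1 group, limit what small differences can show.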

Other observations

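1 further cluster carries the symbols of both Tlr10 and Tlr1 and was assigned to neither gene. It was at 3.90, 3.36 and 3.59 on noise arrays 2, 3 and 4, against 3.47, 3.32 and 3.43 on control arrays 1, 2 and 6. Its difference of 0.21 (95% interval from -0.13 to 0.55) had the opposite sign to that of the Tlr1 cluster, and the groups overlapped for both.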
